A study of Mus musculus with 18 samples.

Results

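The LIM-homeodomain genes Lhx1, Lhx2, Lhx5, Lhx6, Lhx8, Lhx9 and Isl1 and the LIM-only genes Lmo1, Lmo3 and Lmo4 were described across the cell populations of the embryonic mouse forebrain and across 3 Myt1l genotypes. These 10 genes were taken by symbol from the 55335 genes of the count tables, by a rule that used no measured value, although the choice of genes was made with earlier results of these data known. The nuclei came from forebrains at embryonic day 14 of mice that carried the MYT1L S710fsX frameshift on no allele (WT), on 1 allele (Het) or on both alleles (KO), with 3 animals per genotype and no other treatment. Nuclei were labelled by combinatorial barcoding, in which fixed nuclei collect barcodes over rounds of splitting and pooling. Each animal has 2 libraries, which the labels call run 1 and run 2 without saying what a run is, and they were summed because the animal is the replicate. The mutation is present in every cell of an animal, so a value in a Het or KO population cannot be told apart from an effect that began in another population or at an earlier stage. MYT1L is a zinc finger transcription factor of young neurons.

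LIM-homeodomain proteins bind DNA through the homeodomain and bind partners through a pair of LIM domains, chiefly the adaptor LDB1, which joins them into larger complexes. LMO proteins hold LIM domains without a DNA-binding domain, take up the same adaptor and so compete for it or bridge other factors. In the forebrain these genes mark and direct neuronal classes: Lhx6, Lhx8 and Isl1 act in the ventral telencephalon, Lhx2 in the cortical primordium, and Lhx1 and Lhx5 in Cajal-Retzius cells.

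Of 261143 barcodes, 193955 nuclei (74.3%) with a median of 2531 UMIs were kept, 14850 to 25890 per animal, and 1841 barcodes occurred in more than 1 library, 1686 of them in different animals. Clustering, which left the 10 genes out of the variable genes, gave 30 clusters. A cluster took a class name, written as "-like", from marker genes alone, and clusters without a name are given by cluster number and leading genes. Cluster 27 met the mural and fibroblast list, but its leading genes held macrophage genes (Fcrls, Csf1r) beside mural genes (Abcc9, Rgs5), so it is given by its number. These names come from clustering done here and may differ from the study's own. Myt1l RNA was not lower in KO nuclei of the neuron clusters, with 2080 ± 131 CPM (UMIs of a gene scaled to the depth of its summed population, mean and SD) in WT and 2525 ± 149 CPM in KO in the excitatory neuron-like class (n = 3 each), so its level does not check the genotype labels. The animal Het 1 stood apart: cluster 29, diencephalic neuron-like, held 690 nuclei of Het 1 and 1 nucleus of WT 1, and results that rest on Het 1 are given with its value. In these pooled counts, fewer expressing nuclei and less RNA per nucleus cannot be told apart.

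The order of clusters by level differed between the genes. Lmo4 was at 10 CPM or more in 16 neuron clusters, Lmo3 in 15 and Lhx2 in 14, and each of the other genes in at most 7. Levels below are compared between clusters within a gene and not between genes, because the counts were not scaled to transcript length. Clusters next to each other in the order of levels were compared by an exact sign-flip permutation test over the 9 animals (two-sided, smallest possible p 0.00391), adjusted by Benjamini-Hochberg over 210 such pairs of all 10 genes. The levels differed in 66 pairs, 25 of 60 between classes and 41 of 150 between neuron clusters. Differences where every animal had the same direction all carried an adjusted p of 0.0155 by this exact test.

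**Figure D1:**
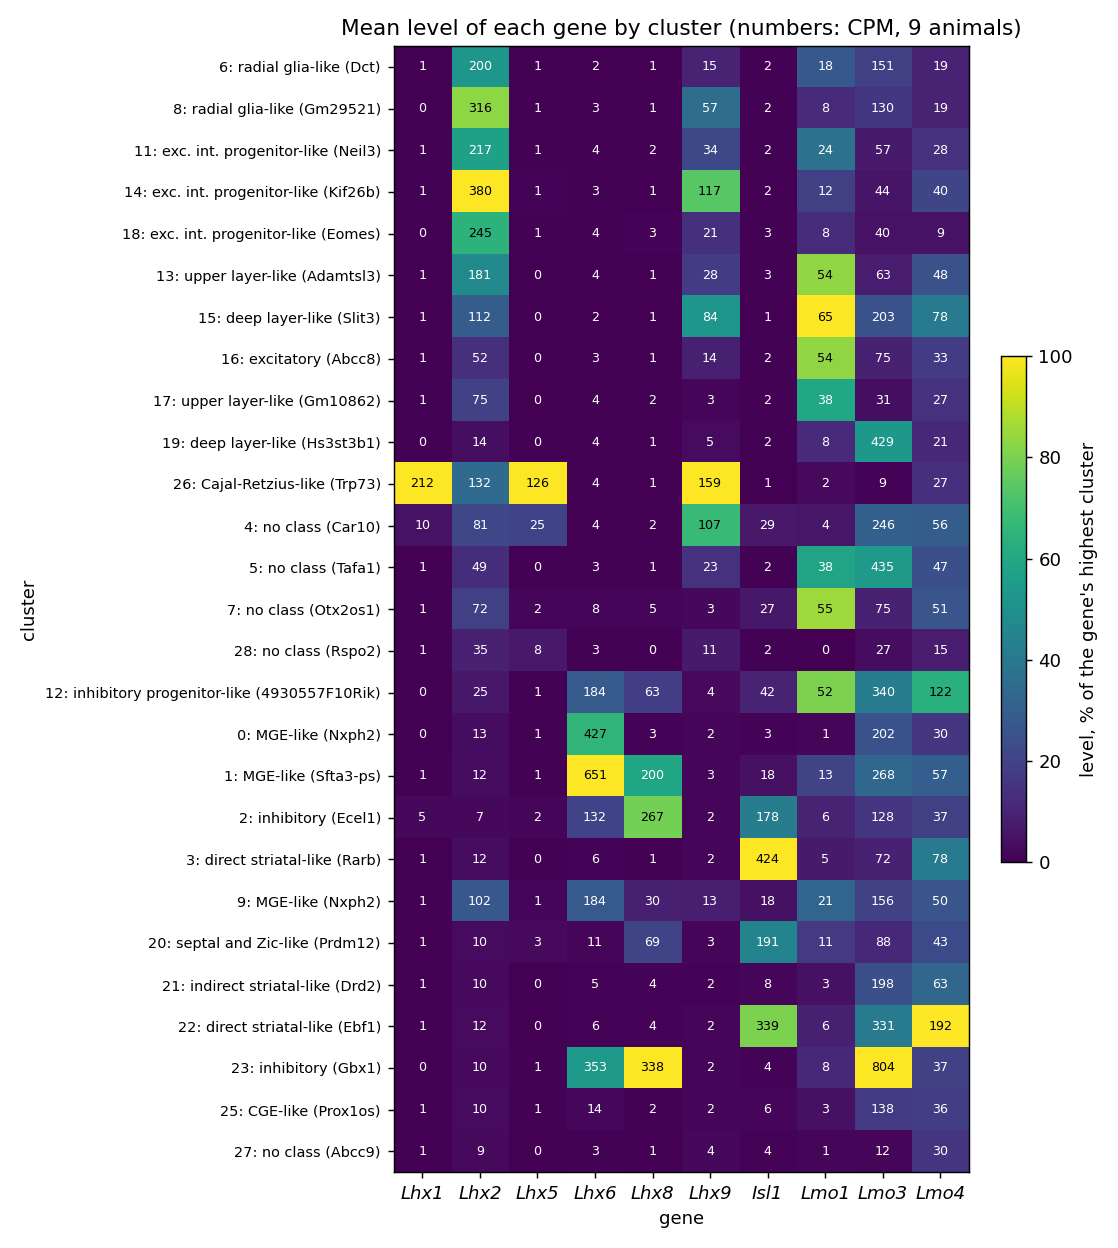
Mean level of each gene (columns) in each cluster (rows) over 9 animals, with the number giving CPM and the colour the percentage of that gene's highest cluster. Lhx6 is highest in clusters 1, 0 and 23 and Lhx8 in clusters 23, 2 and 1, while Lhx2 is highest in cluster 14 and in the radial glia-like cluster 8, and Lhx1 and Lhx5 chiefly mark the Cajal-Retzius-like cluster 26.

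Lhx6, required for the migration and identity of interneurons born in the medial ganglionic eminence (MGE), was highest in the MGE interneuron-like clusters. The gene (ENSMUSG00000026890) lies on chromosome 2, 36081953 to 36105408, minus strand (GRCm38, positions of the gene in the GENCODE annotation, as for all genes here). Its level was 651 ± 51.8 CPM (SD, n = 9) in cluster 1 (Sst, Calb1, Nkx2-1), 427 ± 34.4 CPM in cluster 0 (Nxph2, Maf) and 353 ± 45.1 CPM in cluster 23 (Gbx1, Pde3a, Adarb2), which took no subtype name. In cluster 1 it was 595, 679 and 661 CPM in WT 1 to 3, 631, 633 and 643 CPM in Het 1 to 3, and 581, 755 and 682 CPM in KO 1 to 3, so the genotypes overlapped and KO held both the lowest and the highest animal. The step from cluster 1 to cluster 0 and that from cluster 0 to cluster 23 were each seen in 9 of 9 animals. Cluster 12 (Dlx1, Dlx2) was named inhibitory progenitor-like because these progenitor markers were among its 10 leading genes, with 4 of 6 progenitor markers detected, although the inhibitory neuron list had the larger share detected, 6 of 7. It held 184 ± 26.7 CPM of Lhx6, and the next neuron clusters were 9 (Nxph2, Maf) with 184 ± 41.6 CPM and 2 (Ecel1, Bnc2, Slc10a4) with 132 ± 27.7 CPM. From cluster 2 to cluster 25 (Prox1, Adarb2; caudal ganglionic eminence interneuron-like) the level fell to 13.8 ± 4.67 CPM, in 9 of 9 animals. A UMI of Lhx6 was found in 65.2% ± 4.83 of nuclei in cluster 1 (median depth 1906 UMIs) and in 0.915% ± 0.177 of excitatory neuron-like nuclei (2709 UMIs), which should lack the gene and give its background. With each nucleus thinned to 1000 UMIs, which left out 7973 shallower nuclei over all clusters, these shares were 44.6% ± 3.10 and 0.334% ± 0.0764. Cluster 9 also carried excitatory neuron markers (1972 ± 139 CPM summed over 7 genes), and the part of mixed nuclei in its levels was not tested.

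Lhx8, a close relative of Lhx6 that is needed for the cholinergic neurons of the basal forebrain, had a partly different order. Lhx8 (ENSMUSG00000096225) lies on chromosome 3, 154306294 to 154330659, minus strand. The highest level was in cluster 23 with 338 ± 32.3 CPM, followed by 267 ± 39.4 CPM in cluster 2 and 200 ± 32.0 CPM in cluster 1, each step in 8 of 9 animals (adjusted p = 0.0256, exact permutation test). In cluster 0, the second cluster for Lhx6, Lhx8 was close to background at 2.75 ± 1.27 CPM. A UMI of Lhx8 was found in 53.9% ± 4.89 of nuclei of cluster 23 (3048 UMIs) and in 0.279% ± 0.0713 of excitatory neuron-like nuclei. By genotype, cluster 23 held 366, 349 and 286 CPM in WT 1 to 3, 351, 382 and 359 CPM in Het 1 to 3, and 301, 342 and 308 CPM in KO 1 to 3, with overlap throughout. Lower levels were read in cluster 20 (Prdm12, Zic4; septal and Zic-like; 69.5 ± 18.1 CPM), in cluster 12 (62.9 ± 9.50 CPM) and in cluster 9 (29.9 ± 13.1 CPM).

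Isl1, which directs striatal neurons of the direct pathway and, with Lhx8, cholinergic neurons, was highest in the direct-pathway striatal-like clusters. Isl1 (ENSMUSG00000042258) lies on chromosome 13, 116298281 to 116309689, minus strand. Cluster 3 (Rarb, Ikzf1, Rxrg, Tac1) held 424 ± 31.3 CPM and cluster 22 (Ebf1, Zfp503) 339 ± 19.1 CPM, a step seen in 9 of 9 animals. In cluster 3 the animals read 455, 417 and 407 CPM in WT, 449, 426 and 377 CPM in Het, and 378, 451 and 454 CPM in KO, and the genotypes overlapped. Cluster 20 with 191 ± 24.0 CPM and cluster 2 with 178 ± 45.5 CPM did not differ beyond the spread between animals (higher in cluster 20 in 6 of 9 animals, adjusted p = 0.649, exact permutation test). In the indirect-pathway striatal-like cluster 21 (Drd2, Six3) Isl1 was at 8.13 ± 3.13 CPM. A UMI was found in 65.1% ± 2.39 of nuclei in cluster 3 (3058 UMIs) against 0.582% ± 0.121 of excitatory neuron-like nuclei.

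**Figure D2:**
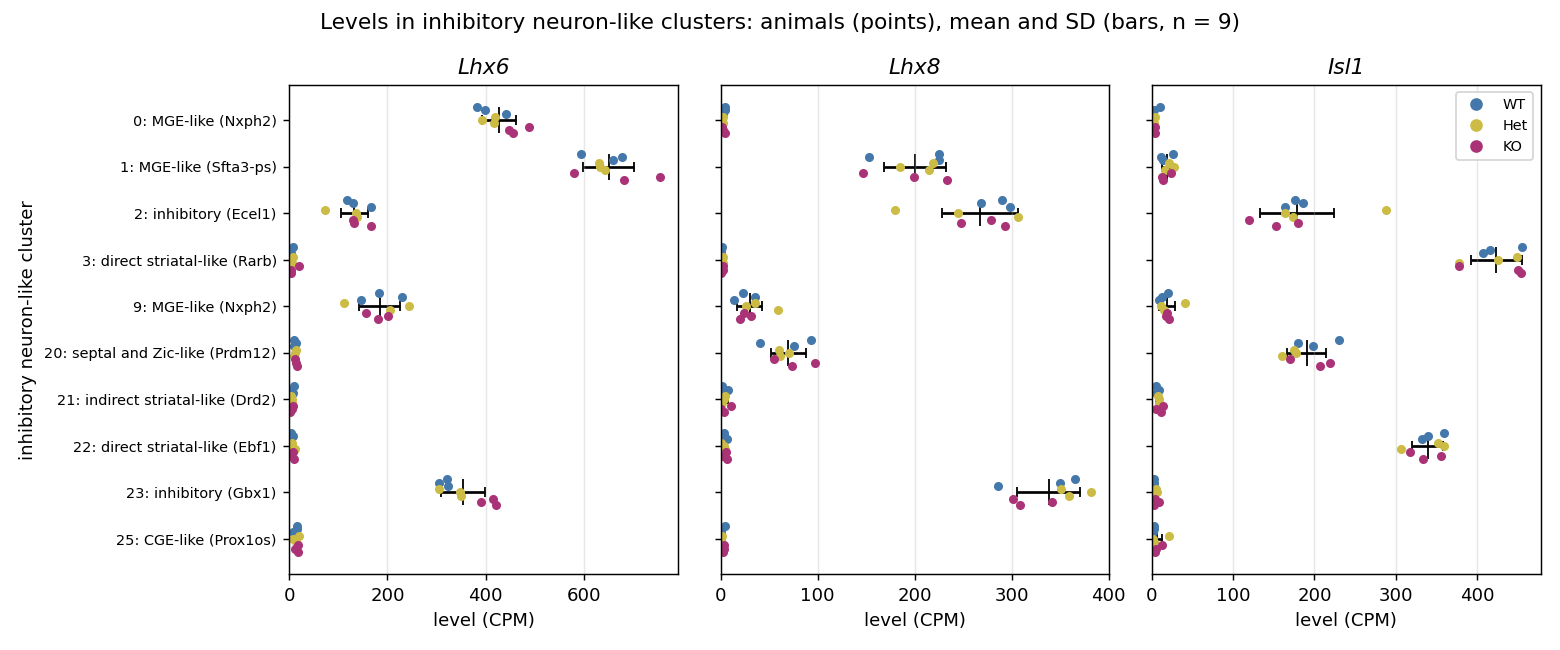
Levels (CPM) of Lhx6, Lhx8 and Isl1 in each inhibitory neuron-like cluster, with points for the 9 animals coloured by genotype and bars for the mean and SD. Cluster 1 leads for Lhx6, cluster 23 for Lhx8 and cluster 3 for Isl1, and in cluster 2 the Het 1 animal lies apart with high Isl1 and low Lhx6 and Lhx8.

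Cluster 2 was the only neuron cluster in which Lhx6, Lhx8 and Isl1 all exceeded 100 CPM on average, and the animal Het 1 differed there from the other 8. Isl1 read 176, 186 and 163 CPM in WT 1 to 3, 288, 164 and 174 CPM in Het 1 to 3, and 119.5, 180.0 and 153 CPM in KO 1 to 3. Lhx6 in the same cluster was 73.0 CPM in Het 1 against 118 to 167 CPM in the other animals, and Lhx8 was 179.5 CPM in Het 1 against 245 to 306 CPM. Het 1 was thus highest for Isl1 and lowest for both other genes. Het 1 also gave 1043 nuclei of cluster 2, where the other animals gave 279 to 680. The sum of the 7 inhibitory neuron markers in cluster 2 was 3969 CPM in the highest Het animal against 2051 to 2567 CPM in WT and KO. These sums were kept as a range per genotype, so that value is not credited to Het 1. The part of such a difference in cell content was not tested.

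In clusters 2 and 12, Lhx6 and Isl1 were read in the same nucleus less often than their shares gave, whereas Lhx6 and Lhx8 were read together more often. As a description, nuclei with a UMI of both genes were counted against the number given by the product of their shares within cluster, animal and 5 bins of UMI depth. For Lhx6 and Lhx8 the ratio was 1.36 over all nuclei (3486 observed, 2564 expected) and above 1 in 9 of 9 animals. It was 3.42 in cluster 12, 1.90 in cluster 2, 1.16 in cluster 1 and 1.03 in cluster 23. The highest value this ratio can take falls as the share of nuclei with a UMI of either gene rises, so its sizes cannot be ranked between clusters. For Lhx6 and Isl1 it was 0.589 over all nuclei (481 observed, 817 expected), with 0.315 in cluster 2 (93 observed, 295 expected) and 0.289 in cluster 12 (34 observed, 118 expected), below 1 in 9 of 9 animals in each. In the clusters with the most Isl1 this ratio was 1.01 in cluster 3 and 1.21 in cluster 22 (41 observed, 33.8 expected). Lhx6 was near its background there, with a UMI in 65 of 4762 nuclei of cluster 3 and in 73 of 6323 of cluster 22. These ratios therefore cannot be set against those of clusters 2 and 12. Lhx8 and Isl1 stood between the other pairs in clusters 2 (0.763), 12 (0.440) and 20 (1.18). In cluster 1 they did not, with a ratio of 1.45 (69 observed, 47.6 expected), above that of Lhx6 and Lhx8. A nucleus without a UMI is not a nucleus without the transcript, and subsets of nuclei inside a cluster move these ratios.

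**Figure D3:**
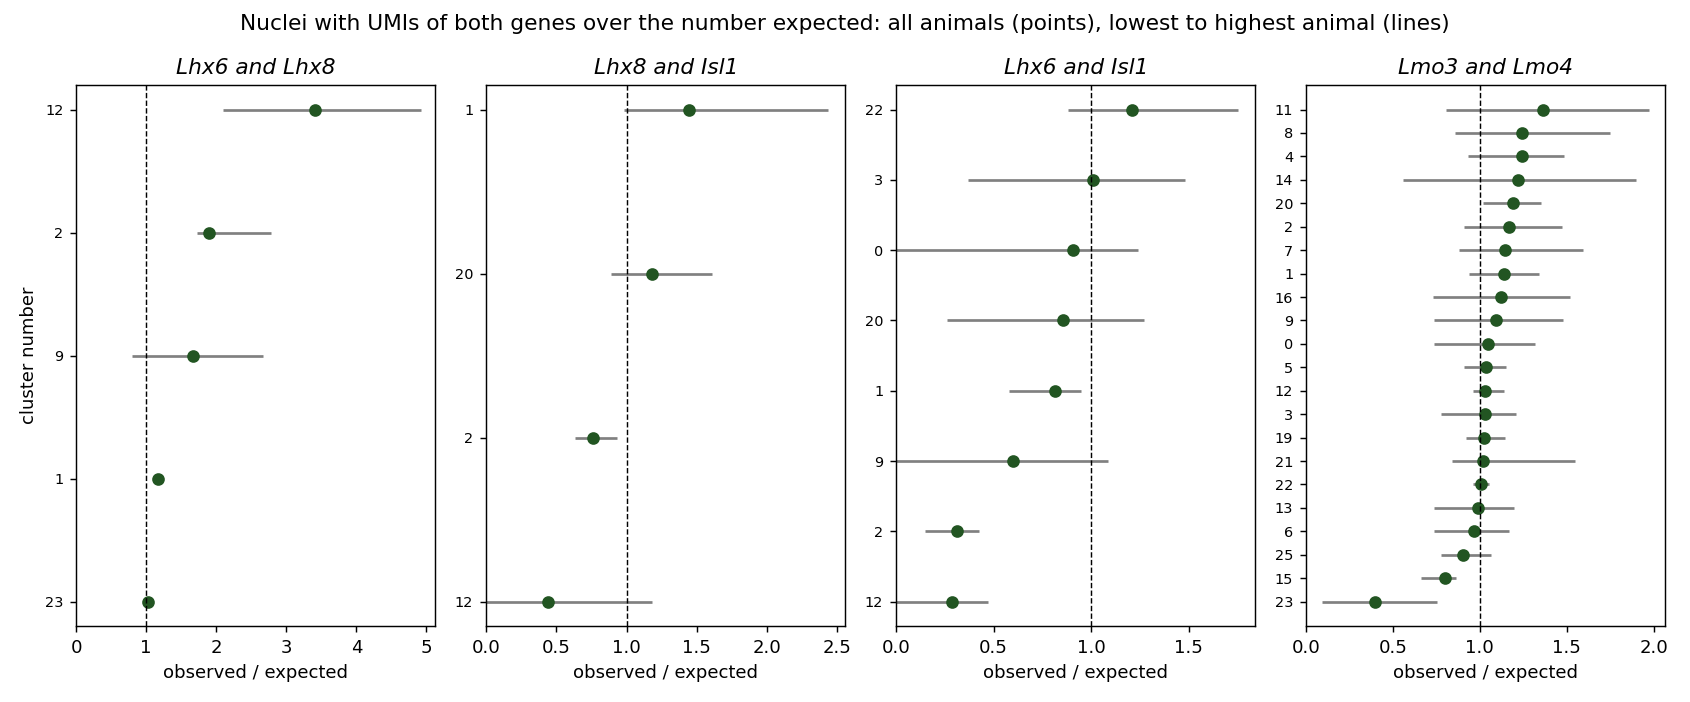
Ratio of observed to expected nuclei with UMIs of both genes of a pair, by cluster number, with points for all animals together and lines from the lowest to the highest animal. Lhx6 with Lhx8 lies above 1 in cluster 12 and cluster 2, and Lhx6 with Isl1 lies below 1 in the same clusters, at 0.289 and 0.315.

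The promoters of Lhx6 and Lhx8 are shown because MYT1L, the factor mutated here, belongs to a zinc finger family that binds the core AAGTT. The windows run from 250 bases before to 50 bases after an annotated start (RefSeq, GRCm38.p6) and are printed 5′ to 3′ on the strand of the gene, with AAGTT or its reverse complement AACTT in capitals. Of the 10 genes, 9 had a window in the RefSeq table used, 15 windows in all, and 7 windows of 5 genes held the core, beside 39.3% of all 32851 promoters in that table. The homeodomain core TAATTA (the same on both strands, and without overlap with the other motif in these windows) was found for Lmo1 alone, beside 5.29% of all promoters. Lhx6 had 3 windows, and the one nearest to the start of the gene annotation held 1 match, 21 bases before the start. Lhx8 had 1 window with 3 matches, the nearest of them 26 bases before the start.
Lhx6 promoter, chr2:36105359-36105658, minus strand: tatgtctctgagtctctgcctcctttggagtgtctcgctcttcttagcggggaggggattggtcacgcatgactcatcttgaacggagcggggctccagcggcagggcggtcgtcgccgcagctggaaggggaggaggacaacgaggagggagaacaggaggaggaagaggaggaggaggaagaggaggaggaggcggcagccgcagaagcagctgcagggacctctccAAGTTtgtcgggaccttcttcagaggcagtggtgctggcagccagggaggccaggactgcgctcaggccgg
Lhx8 promoter, chr3:154330511-154330810, minus strand: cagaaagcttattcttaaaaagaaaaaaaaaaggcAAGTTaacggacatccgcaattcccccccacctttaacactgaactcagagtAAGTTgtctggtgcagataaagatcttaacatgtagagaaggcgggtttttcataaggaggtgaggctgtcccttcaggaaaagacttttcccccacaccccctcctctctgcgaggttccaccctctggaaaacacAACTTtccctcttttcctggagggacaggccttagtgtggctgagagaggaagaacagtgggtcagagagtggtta
A match is a run of letters and was not tested for binding.

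Lhx2, which keeps the cortical primordium cortical and holds progenitors back from other fates, had its highest levels in the excitatory intermediate progenitor-like and radial glia-like classes. Lhx2 (ENSMUSG00000000247) lies on chromosome 2, 38339281 to 38369733, plus strand. The excitatory intermediate progenitor-like class held 304 ± 18.3 CPM, the radial glia-like class 234.5 ± 11.0 CPM, the Cajal-Retzius-like class 132 ± 17.2 CPM and the excitatory neuron-like class 94.2 ± 6.56 CPM, each step in 9 of 9 animals. Among single clusters, cluster 14 (Eomes, Neurod1, Slc17a6) held 380.2 ± 16.3 CPM and the radial glia-like cluster 8 held 316 ± 9.57 CPM. Among excitatory neuron-like clusters the level fell from cluster 13 (Sema3c, Unc5d; upper layer-like) at 181 ± 13.1 CPM through cluster 15 (Slit3, Nr4a3; deep layer-like) at 112 ± 6.14 CPM and cluster 17 (74.9 ± 11.4 CPM) to cluster 16 (Abcc8, Bcl6) at 51.7 ± 3.94 CPM, and the Cajal-Retzius-like cluster 26 (132 ± 17.2 CPM) and the inhibitory cluster 9 (102.5 ± 12.9 CPM) lay within this range. The second deep layer-like cluster, 19 (Hs3st4, Nfe2l3), held only 13.9 ± 5.22 CPM, below cluster 16 in 9 of 9 animals and not separable from the inhibitory cluster 0 (adjusted p = 0.865, exact permutation test). A UMI of Lhx2 was found in 53.6% ± 5.74 of nuclei of cluster 14 and in 3.64% ± 1.31 of inhibitory neuron-like nuclei. In cluster 13 the level was 180.2, 175 and 204 CPM in WT 1 to 3, 168, 163 and 179 CPM in Het 1 to 3, and 195, 175 and 191 CPM in KO 1 to 3, with overlap of all genotypes.

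Lhx9, the nearest relative of Lhx2, was read in part of the same clusters and led in the Cajal-Retzius-like cluster 26 (Trp73, Reln, Ebf3) with 159 ± 26.4 CPM. Lhx9 (ENSMUSG00000019230) lies on chromosome 1, 138825186 to 138848577, minus strand. Its level followed in cluster 14 with 117 ± 8.62 CPM, in cluster 4 (Car10, Samd3, Sim1; unnamed) with 107 ± 13.9 CPM and in cluster 15 with 83.5 ± 4.72 CPM. Among neuron clusters, cluster 26 exceeded cluster 15, and cluster 15 exceeded cluster 13 (27.9 ± 4.92 CPM), in 9 of 9 animals. In cluster 26 the animals read 152, 142 and 197 CPM in WT, 196, 122 and 137 CPM in Het, and 151, 151 and 180.2 CPM in KO, a wider spread than in cluster 15, where all 9 lay between 75.8 and 89.5 CPM. Nuclei with UMIs of both Lhx2 and Lhx9 were 1.23 times the expected number over all nuclei (4868 observed, 3967 expected), with 1.49 in cluster 15 and 1.00 in cluster 26. The highest pooled level of Lhx9, 557 CPM, was in cluster 29, which came from Het 1 apart from 1 nucleus and entered no comparison.

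Lhx1 and Lhx5, paralogous factors of Cajal-Retzius cells and of many neurons outside the telencephalon, were highest in cluster 26. Lhx1 (ENSMUSG00000018698) lies on chromosome 11, 84518284 to 84525535, minus strand, and Lhx5 (ENSMUSG00000029595) lies on chromosome 5, 120431699 to 120441223, plus strand. Lhx1 was at 212 ± 29.7 CPM there and Lhx5 at 126 ± 13.01 CPM, and no other neuron cluster exceeded 4.93 CPM for Lhx1 or 3.09 CPM for Lhx5. Lhx1 read 197, 229.9 and 184 CPM in WT 1 to 3, 197, 207 and 213 CPM in Het 1 to 3, and 179.8, 218 and 278 CPM in KO 1 to 3. For Lhx5 the values were 117, 114 and 135 CPM in WT, 128, 108 and 118 CPM in Het, and 130, 134 and 150.1 CPM in KO. The genotypes overlapped for both genes, with KO 3 the highest animal for each. A UMI of Lhx1 was found in 45.2% ± 5.84 and of Lhx5 in 31.9% ± 3.54 of nuclei of cluster 26, against 0.303% ± 0.506 and 0.286% ± 0.198 of inhibitory neuron-like nuclei. The unnamed cluster 4 held 10.4 ± 4.33 CPM of Lhx1 and 25.4 ± 5.82 CPM of Lhx5. Lhx5 shares its locus with Gm27199 on the other strand, which had 1175 UMIs against 1727 for Lhx5, and whether counting used strand is not stated, so these reads are uncertain.

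Lhx1 in cluster 2 was a matter of 1 animal. Het 1 held 38.0 CPM, while the other 8 animals held 0 to 2.52 CPM, and in the whole inhibitory neuron-like class Het 1 was at 8.84 CPM against 0.302 to 1.06 CPM in the others.

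Lmo3, a LIM-only gene whose protein partners basic helix-loop-helix factors in neurons, was read in both excitatory and inhibitory clusters. Lmo3 (ENSMUSG00000030226) lies on chromosome 6, 138362918 to 138581968, minus strand. Cluster 23 led with 804 ± 131 CPM, ahead of cluster 19 with 429 ± 67.1 CPM (9 of 9 animals) and of the unnamed cluster 5 (Tafa1, Tfap2d, Sim1) with 435 ± 55.6 CPM. Clusters 12 and 22 followed with 340.2 ± 26.7 and 331 ± 34.3 CPM, and the Cajal-Retzius-like cluster 26 was lowest among neuron clusters with 9.03 ± 4.55 CPM. The deep layer-like clusters 19 and 15 thus differed for Lmo3 in the opposite direction to Lhx2, since cluster 15 held 203 ± 17.5 CPM. In cluster 23, 957 of 2916 nuclei held a UMI of Lmo3 (32.9% ± 2.99), a smaller share than the 51.3% ± 5.61 in cluster 19, whose nuclei were deeper. After thinning to 1000 UMIs the shares were 28.2% ± 4.11 in cluster 19 and 25.5% ± 2.54 in cluster 23, which overlap within their SDs. In cluster 23 the animals read 775, 807 and 785 CPM in WT 1 to 3, 769.5, 800 and 722 CPM in Het 1 to 3, and 589.9, 1060.0 and 933 CPM in KO 1 to 3, with KO on both sides of the other genotypes. The RefSeq promoter window of Lmo3 is shown because Lmo3 was the gene with a genotype difference (below), and it held neither core on either strand.
Lmo3 promoter, chr6:138581919-138582218, minus strand: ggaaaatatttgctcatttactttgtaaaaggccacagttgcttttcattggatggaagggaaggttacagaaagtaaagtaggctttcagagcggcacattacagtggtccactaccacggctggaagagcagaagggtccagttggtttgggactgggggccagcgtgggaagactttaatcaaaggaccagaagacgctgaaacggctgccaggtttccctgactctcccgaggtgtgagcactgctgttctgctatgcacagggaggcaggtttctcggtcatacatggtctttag
That these letters are missing from the window says nothing about sites elsewhere.

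Lmo4, a regulator of cortical and striatal neurons, was highest in cluster 22 with 192 ± 20.7 CPM, in 9 of 9 animals above the next neuron cluster, cluster 3 (78.3 ± 6.85 CPM). Lmo4 (ENSMUSG00000028266) lies on chromosome 3, 144188530 to 144205220, minus strand. Cluster 3 and the deep layer-like cluster 15 (78.2 ± 8.31 CPM) did not differ beyond their spread (adjusted p = 0.973, exact permutation test). From cluster 21 (63.1 ± 10.6 CPM) down to cluster 19 (21.3 ± 3.71 CPM) no step between neighbours passed the test. In cluster 22 the level was 217, 197 and 212 CPM in WT 1 to 3, 153, 206 and 204 CPM in Het 1 to 3, and 176, 176 and 187 CPM in KO 1 to 3. All 3 KO animals lay below all 3 WT animals, but the fitted difference, -0.18 ± 0.11 on the log2 scale (SE), did not pass the edgeR test (adjusted p = 1.00, unadjusted p = 0.142). Lmo4 also overlaps Gm43445 on the same strand (5894 UMIs against 25163 for Lmo4), which counting can split. Lmo3 and Lmo4 were read together in 0.398 times the expected number of nuclei in cluster 23 (37 observed, 93.0 expected) and 0.799 times in cluster 15, below 1 in 9 of 9 animals in each, and near 1 over all nuclei (1.03).

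Lmo1, a LIM-only gene of the developing brain and a T-cell oncogene, had its highest levels among neurons in excitatory clusters. Lmo1 (ENSMUSG00000036111) lies on chromosome 7, 109138572 to 109175207, minus strand. The level was 64.7 ± 5.41 CPM in cluster 15, at 54.1 ± 2.45 CPM in cluster 13 and at 54.1 ± 8.26 CPM in cluster 16, the first step in 9 of 9 animals and the second not beyond the spread (adjusted p = 0.938, exact permutation test). Cluster 12 held 52.0 ± 8.61 CPM and the unnamed cluster 7 (Otx2, Ano1, Egfr) 55.1 ± 5.03 CPM, while the inhibitory neuron-like class was at 6.89 ± 0.903 CPM and cluster 26 at 1.73 ± 1.28 CPM. The deep layer-like cluster 19, also excitatory, had a mean of only 7.90 CPM, below the inhibitory clusters 9 (21.0 CPM) and 1 (13.4 CPM). In cluster 15 the animals read 59.8, 65.0 and 71.4 CPM in WT, 57.3, 59.8 and 63.0 CPM in Het, and 65.0, 73.2 and 68.1 CPM in KO, again overlapping. Lmo1 and Lmo3 were read together in 0.776 times the expected number of nuclei in cluster 5 and in 1.08 times over all nuclei.

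The genes with the most similar pattern were found by the Pearson correlation of log2(CPM + 1) over 27 clusters, which share libraries and are not independent. For Lhx6 they were Sst (0.85), Npy2r (0.83) and Dlx1as (0.83), and for Lhx8 Slc10a4 (0.93), Nkx2-1 (0.90) and Gm26973 (0.90). Isl1 was most like Peg10 (0.93), Dgkk (0.89) and Zfhx3 (0.86). For Lhx2 they were Emx1 (0.88), Ccdc136 (0.86) and E130114P18Rik (0.85), and for Lhx9 Lhx2 itself (0.82), Nrn1 (0.81) and Nhlh2 (0.79). Lhx1 and Lhx5 shared Lhx1os (0.98 and 0.94) and the overlapping Gm27199 (0.93 and 0.97), with Kcnj5 (0.96) for Lhx1 and Trp73 (0.94) for Lhx5. The LIM-only genes had less close companions, apart from the overlapping Gm43445 for Lmo4 (0.98). They were Myef2 and Mapk11 (each 0.78) for Lmo1, Tmeff2 (0.75), Neto2 (0.74) and Sgcz (0.73) for Lmo3, and Esrrg and Enox1 (each 0.72) for Lmo4. Many of these genes were open to the clustering, which the 10 members were not.

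Few differences between genotypes were found for these genes, and none of them in a whole class. A gene was called where edgeR's quasi-likelihood test gave a Benjamini-Hochberg adjusted p under 0.05 over all genes of that population with a log2 fold change beyond 0.2. Between KO and WT, 0 of 46 pairs of a gene with 1 of 6 classes were called, 5 of them with an unadjusted p under 0.05 (10.9%, against 6.12% of all genes), and DESeq2 also called 0. Over all genes, the share called was 0.0% in the radial glia-like class, 0.37% in the Cajal-Retzius-like class, 0.733% in the excitatory neuron-like class, 0.0104% in the inhibitory neuron-like class, 0.0% in cluster 27, where no member had enough counts to be tested, and 0.0% in the inhibitory progenitor-like and excitatory intermediate progenitor-like classes. Between Het and WT, 0 of 46 class pairs were called by edgeR or DESeq2 (1 with an unadjusted p under 0.05, 2.17% against 2.78% of all genes), beside 0.0% of all genes over the classes. Het and KO share the WT animals. The 5 KO pairs were Lhx2 in the Cajal-Retzius-like class (log2 fold change 0.32), Lhx2 (0.16) and Lmo1 (0.23) in the excitatory neuron-like class, Isl1 in the excitatory intermediate progenitor-like class (-0.99, at 2.06 CPM) and Lmo4 in the radial glia-like class (-0.34).

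In the 16 neuron clusters 0 of 90 pairs were called in KO, beside 0.413% of all genes tested there, and 0 of 90 in Het, beside 0.000571%. An unadjusted p under 0.05 was reached by 10 KO pairs (11.1%, against 7.51% of all genes) and 3 Het pairs (3.33%, against 3.48%). Same-numbered animals of different genotypes deviated together in the excitatory and inhibitory neuron-like classes and in clusters 5 and 19, but not for every pair in cluster 2 (8 of 9) and cluster 23 (4 of 9). With the replicate number as a block edgeR called 3 KO pairs, Lmo3 in clusters 19 and 2 and Lhx6 in cluster 23, beside 1.36% of all genes. DESeq2 called 1 of them, Lmo3 in cluster 19. In the unnamed clusters 4, 5 and 7, 1 of 23 pairs was called in KO, Lmo3 in cluster 5, beside 0.465% of all genes, and 0 in Het by edgeR or DESeq2, beside 0.0%. An unadjusted p under 0.05 was reached there by 3 KO pairs (13%, against 7.55% of all genes) and 2 Het pairs (8.70%, against 3.35%). Cluster 5 took no class name, with 2 excitatory neuron markers detected and the hypothalamic neuron list highest by fold. Its WT Myt1l level (1906 ± 111 CPM) was near that of the excitatory neuron-like class (2080 ± 131 CPM). It was also near that of the inhibitory cluster 21 (1847 ± 167 CPM), so Myt1l does not give its class. With the LIM genes kept for clustering, a cluster led by Tfap2d, Tafa1 and Gm28756 was named excitatory neuron-like, with 3 of 7 markers detected. The 0 calls in neuron clusters thus leave out cluster 5. The genes below are the 6 neuron cluster pairs with the lowest unadjusted p at 10 CPM or more, and Lmo3 in cluster 5, which was added after its values were seen. Since these pairs were chosen for a low p, that their KO and WT animals did not overlap adds nothing to the test.

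Lmo3 was lower in KO in cluster 5. It read 512.2, 459 and 443 CPM in WT 1 to 3, 486, 451 and 467 CPM in Het 1 to 3, and 365, 376 and 358 CPM in KO 1 to 3. All KO animals lay below all WT and Het animals, and Het overlapped WT. The log2 fold change was -0.34 ± 0.07 (SE) with an adjusted p of 0.0289 (edgeR), 0.00129 with the replicate block and 0.0105 by DESeq2, in a cluster where 1.26% of all genes were called. The edgeR call was lost when any 1 WT or KO animal was left out (adjusted p 0.0533 to 0.144), when the fit held only WT and KO (0.0508) and in run 1 alone (-0.17, 0.842). In Het the log2 fold change was 0.00 ± 0.07. The share of nuclei with a UMI after thinning was 27.2%, 27.2% and 25.3% in WT and 25.0%, 22.7% and 21.98% in KO. Some marker sums of the same nuclei did not overlap between WT and KO. The 5 hippocampal genes (Zbtb20, Prox1, Grik4, Nr2f2, Dmrta2) summed to 820.4 to 1056 CPM in WT and 1146 to 1330 CPM in KO. The 8 deep layer genes summed to 2806 to 2983 and 3036 to 3180.0 CPM, and the 6 caudal ganglionic eminence interneuron genes to 3651 to 3735 and 3188 to 3284 CPM, with no gene of these lists at 0. Prox1 and Nr2f2 are in both the hippocampal and the caudal list. More lists were summed than are named. Those named here and for the pairs below were chosen for not overlapping, apart from the MGE genes below, and the overlapping lists are not counted. Myt1l itself rose in this cluster from 1906 ± 111 to 2948 ± 138 CPM (adjusted p = 0.000564, edgeR). The part of these shifts in the Lmo3 difference was not tested.

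The Lmo3 fold changes in clusters 19 and 2 were above 0 and did not pass the edgeR test, and whether they were called depended on the fit. In cluster 19, deep layer-like, it read 372, 362 and 401 CPM in WT 1 to 3, 438, 444 and 370.1 CPM in Het 1 to 3, and 581, 455 and 435 CPM in KO 1 to 3. The log2 fold change was 0.39 ± 0.11 (adjusted p = 0.0707 by edgeR, 0.00519 with the replicate block, 0.0491 by DESeq2), in a cluster where 2.72% of all genes were called. Without KO 1, the highest animal, the fold change was 0.26 (adjusted p = 0.195, edgeR), without KO 3 it was 0.49 (adjusted p = 0.0308), and without the filter on low counts the adjusted p was 0.00396. Myt1l was called higher in KO in cluster 19 as well (0.44 ± 0.08, adjusted p = 0.00583, edgeR). A higher Myt1l was not particular to the clusters of the pairs named here. Its KO fold change was above 0 in every neuron cluster, and it was also called in clusters 16 (0.36), 17 (0.38) and 4 (0.54), where no member was called. In cluster 19 the hippocampal genes summed to 148 to 179 CPM in WT and 278 to 372 CPM in KO. That list holds Zbtb20, which the paper reports as dysregulated in deep layer excitatory neurons, and the sum was not split by gene. In cluster 2 the values were 97.9, 90.7 and 134 CPM in WT, 123, 118 and 124 CPM in Het, and 148, 161 and 159 CPM in KO. The fold change there was 0.56 ± 0.13 (adjusted p = 0.402 by edgeR, 0.0401 with the replicate block, 0.0235 without the filter, 0.781 by DESeq2), and 0.0% of all genes were called in that cluster. In run 1 alone it was 0.34. The 7 excitatory neuron genes in cluster 2 summed to 289.5 to 437 CPM in WT and 445 to 597 CPM in KO, and their part was not tested. Over the 15 neuron clusters with Lmo3 at 10 CPM or more, the fold change was above 0 in 14 and ranged from -0.16 to 0.56, the exception being cluster 15. None of the 15 was called in the main edgeR fit. These clusters come from the same animals and are not independent readings. How many of all genes keep a sign over as many clusters was not counted, so the 14 do not show a general change.

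Clusters with opposed KO changes of Lmo3 were then compared directly. They were picked for these values, and the p-values are adjusted over genes but not over the pairs of clusters that could have been picked. The within-animal difference of log2 CPM between 2 clusters was fitted over all genes with limma. The KO change in cluster 19 exceeded that in cluster 5 by 0.73 ± 0.11 (adjusted p = 0.0228 over 12458 genes, 0.0018 with the replicate block), and that in cluster 2 exceeded it by 0.90 ± 0.14 (adjusted p = 0.0486 over 10772 genes, 0.00239 with the replicate block). Without WT 1 or WT 2 the first of these limma results had an adjusted p of 0.0978 or 0.0818. The second did not pass in limma without WT 1, WT 2, Het 3, KO 1, KO 2 or KO 3, each left out alone, with adjusted p up to 0.364. Run 1, which held fewer nuclei, gave 0.67 and 0.38 for the differences, and neither passed in limma there (adjusted p = 0.547 and 0.873), while run 2 gave 0.73 and 0.94.

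**Figure D4:**
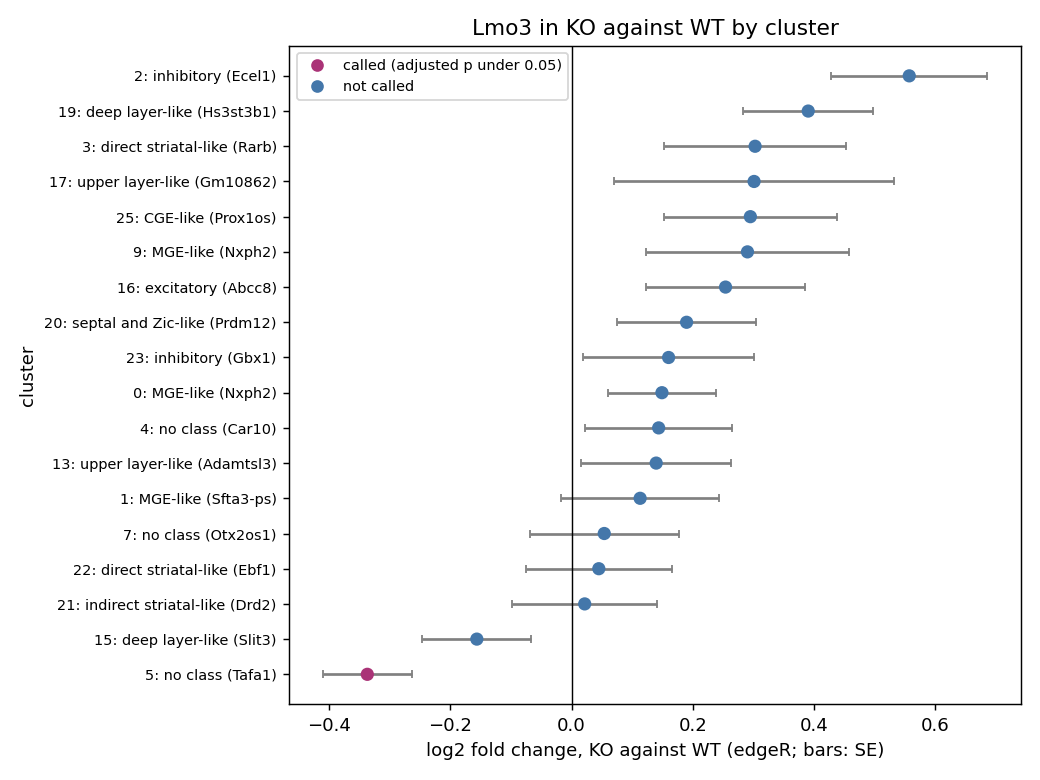
Log2 fold change of Lmo3 in KO against WT by cluster (points) with its standard error (bars), for clusters at 10 CPM or more. Cluster 5 at -0.34 is the only called point, and most other clusters lie right of 0, cluster 2 at 0.56.

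The Lhx6 fold changes in clusters 23 and 0 were above 0, and neither passed the edgeR test. In cluster 23 the level was 321, 306 and 325 CPM in WT 1 to 3, 305, 347 and 351 CPM in Het 1 to 3, and 415, 389.8 and 422 CPM in KO 1 to 3. The KO animals lay above the other 6, with a log2 fold change of 0.40 ± 0.09 (adjusted p = 0.0829 by edgeR, 0.0302 with the replicate block, 0.118 by DESeq2) where 0.185% of all genes were called. In the same cluster the deep layer genes summed to 1234 to 1316 CPM in WT and 1339 to 1653 CPM in KO, and the hippocampal genes to 829 to 1089 and 1203 to 1402 CPM, whereas the 8 MGE interneuron genes overlapped between WT and KO. Myt1l was called higher in KO there too (0.47 ± 0.09, adjusted p = 0.0286, edgeR), and the part of these shifts was not tested. Lhx6 in cluster 0 was 382, 398 and 441 CPM in WT, 420.3, 393 and 417 CPM in Het, and 489, 448 and 456 CPM in KO, a fold change of 0.23 ± 0.08 that did not pass (adjusted p = 0.367, edgeR). In run 1 alone the Lhx6 fold changes were 0.26 in cluster 23 (adjusted p = 0.928, edgeR) and 0.13 in cluster 0 (adjusted p = 0.895). In cluster 1, with the most Lhx6, the fold change was 0.10 ± 0.10.

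Lhx2 gave the remaining named pairs, both at levels near its background in inhibitory nuclei. In cluster 0 it was 21.7, 17.0 and 12.3 CPM in WT, 13.2, 7.38 and 14.6 CPM in Het, and 9.80, 10.7 and 7.94 CPM in KO (log2 fold change -0.78 ± 0.26, adjusted p = 0.304, edgeR). In cluster 21 it was 7.77, 7.68 and 7.33 CPM in WT, 7.96, 7.07 and 10.7 CPM in Het, and 20.04, 10.5 and 11.2 CPM in KO (0.82 ± 0.32, adjusted p = 0.676, edgeR). The directions were opposite, and counts per animal were 16 to 57.8 in cluster 0 and 10 to 19 in cluster 21.

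**Figure D5:**
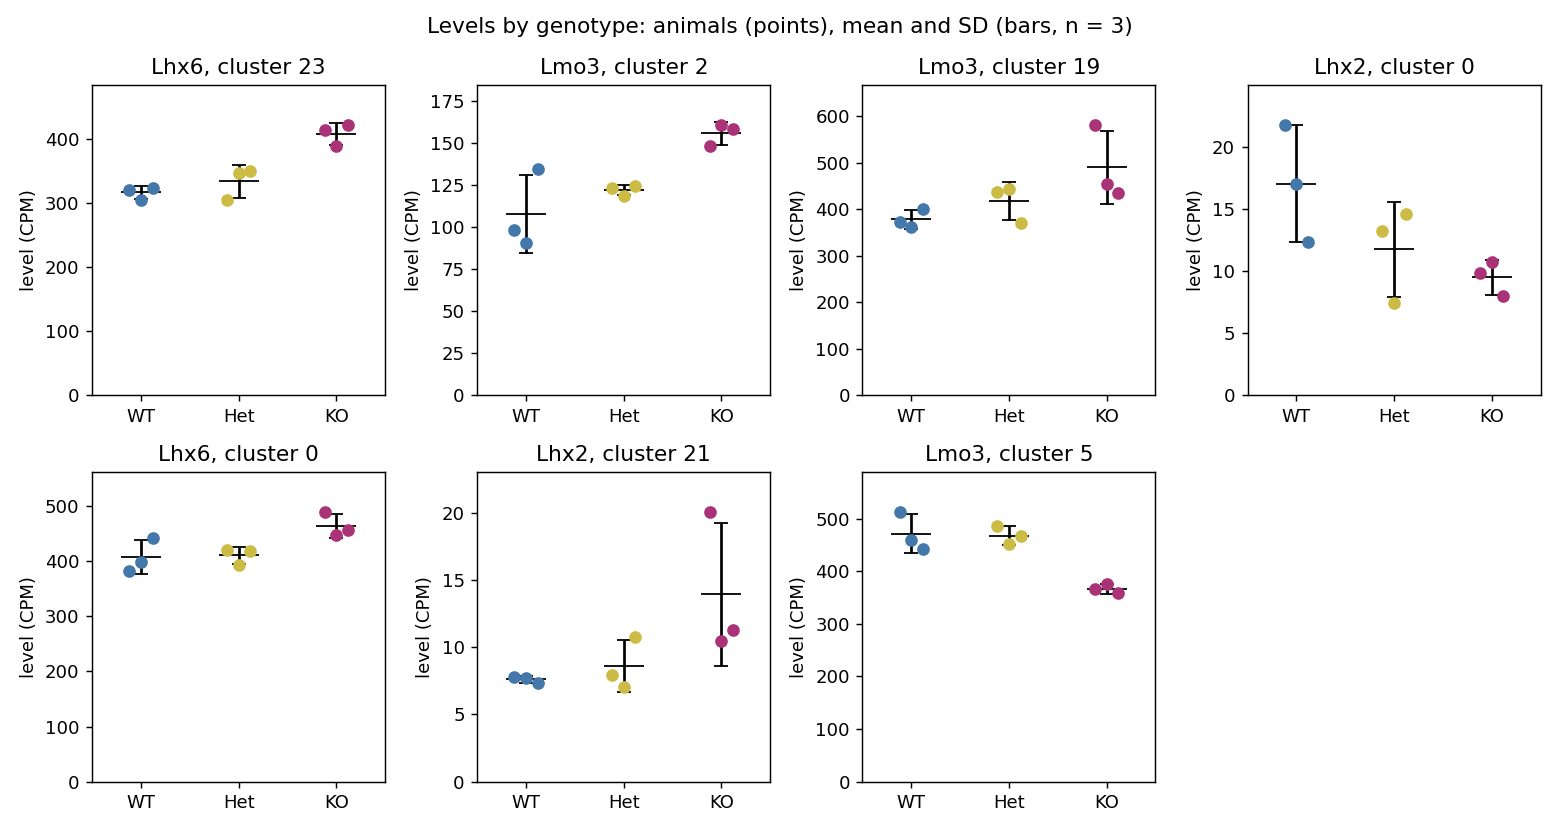
Levels (CPM, from 0) by genotype for the 7 gene and cluster pairs described, with points for single animals and bars for mean and SD (n = 3). Lmo3 in cluster 5 falls from a mean of 471 CPM in WT to 366 CPM in KO, and Lmo3 in cluster 19 goes from 378 to 490.3 CPM.

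The remaining genes showed no KO call in any population. Lhx8 fold changes lay between -0.05 and 0.13 over its 5 neuron clusters at 10 CPM or more, and those of Lhx9 between -0.06 and 0.12 over 4. Isl1 ranged from -0.20 to 0.42 over 6, Lmo1 from -0.64 to 0.43 over 7 and Lmo4 from -0.19 to 0.36 over 16, none called. In cluster 26, Lhx1 and Lhx5 had log2 fold changes of 0.15 ± 0.14 and 0.19 ± 0.14 (adjusted p = 0.828 and 0.758, edgeR).

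Partners of these proteins were read from lists of their cofactors and programmes. In neuron clusters, 2 of 6 other LIM genes, 6 of 6 cofactors and 7 of 10 LMO partners had enough counts to be tested, and in classes 3, 6 and 9 did. None of the tested genes among the other LIM genes (Lhx3, Lhx4, Isl2, Lmx1a, Lmx1b, Lmo2), of the LIM-binding cofactors (Ldb1, Ldb2, Ssbp2, Ssbp3, Ssbp4, Rlim) or of the partners of LMO proteins (Nhlh1, Nhlh2, Tal1, Tal2, Lyl1, Tcf3, Tcf4, Tcf12, Deaf1, Rbbp8) was called by edgeR in KO or Het in any class, neuron cluster or unnamed cluster. In the neuron clusters their KO pairs with an unadjusted p under 0.05 numbered 0 of 5, 6 of 95 and 11 of 90, beside 7.51% of all genes, with median log2 fold changes of 0.18, 0.05 and 0.09, while the median over all genes lay between -0.01 and 0.00 in every neuron cluster. Of the 18 genes of the MGE programme, Sox6, which acts in maturing interneurons, rose in KO in the Cajal-Retzius-like cluster 26 (48.4, 43.9 and 43.2 CPM in WT, 82.3, 41.3 and 57.3 CPM in Het, 91.3, 95.7 and 81.3 CPM in KO, 0.97 ± 0.21, adjusted p = 0.0471, edgeR). That was 1 of 149 neuron cluster pairs, beside 0.413% of all genes over the neuron clusters and 0.37% in cluster 26. Of the 12 genes of the striatal programme, Zfp521, a zinc finger gene of the direct pathway, rose in cluster 19 (111.5, 181 and 145 CPM in WT, 166, 175 and 164 CPM in Het, 236, 267 and 195 CPM in KO, 0.68 ± 0.16, adjusted p = 0.0328, edgeR). That was 1 of 104 neuron cluster pairs, beside 0.413% of all genes over the neuron clusters and 2.72% in cluster 19. Of these 104 striatal pairs, 20 had an unadjusted p under 0.05, beside 7.51% of all genes, and their median was 0.14, while 12 of the 149 MGE pairs did, with a median of 0.02. In Het, 10 of the 104 striatal and 8 of the 149 MGE pairs did, beside 3.48% of all genes. The pairs repeat 11 striatal and 17 MGE genes over clusters of the same animals, so they are not independent and a few genes can supply many of them. Zfp521 (0.61 ± 0.13, adjusted p = 0.0272) and Foxp1 (0.34 ± 0.07, adjusted p = 0.0269) also rose in cluster 5 by edgeR, 2 of 22 pairs, beside 0.465% of all genes in the unnamed clusters and 1.26% in cluster 5. None of these lists had a call in the other direction. The 6 genes of the pallial programme had 0 of 64 neuron cluster pairs called, beside 0.413% of all genes, and a median of -0.08. An unadjusted p under 0.05 was reached by 4 of these 64 pairs, beside 7.51% of all genes.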

How the data were processed

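Single-nucleus libraries were made from flash-frozen embryonic forebrain with combinatorial barcoding, 9 animals with 2 libraries each, labelled run 1 and run 2 (18 libraries). The authors ran the ScaleRna pipeline (demultiplexing, trimming, mapping to mm10 and counting), called nuclei with its CellFinder step and deposited, per library, a matrix of estimated counts of UMIs, which need not be whole. The study's methods limit nuclei by UMIs, genes and mitochondrial share, remove doublets with DoubletFinder and test summed counts, and the submitters' processing notes name Seurat 4.3.0, Scanpy 1.12.0, DESeq2 1.38.3 and mm10. Whether counting used strand was not given in the labels or methods used here.

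Here a nucleus was kept if it had 800 to 6000 UMIs and 300 to 3000 genes, if mitochondrial UMIs made up no more than 1%, and if log genes divided by log UMIs reached 0.9. The highest 5% of Scrublet scores in each library were removed, because its automatic threshold marked nearly no nuclei. Nuclei were clustered with scanpy 1.11.5 and igraph 0.11.9 (3000 variable genes leaving out Myt1l, sex-linked genes, the 10 members and other LIM genes, then 50 principal components, 20 neighbours, Leiden resolution 1). A cluster was named only where at least 3 and at least 40% of a list's markers reached 10 CPM and 1.5 times the level in the other nuclei. The list with the largest share had also to have the highest mean fold, or the leading genes had to settle between lists. No other list could hold more of the leading genes. Cluster 4 had 6 Cajal-Retzius markers but the hypothalamic neuron list highest by fold. Cluster 7 had 8 radial glia markers but the inhibitory progenitor list highest by fold, so both stayed unnamed. Counts were summed per animal and population, rounded to whole numbers and tested on genotype with edgeR 4.0.16 (R 4.3.3), with DESeq2 1.42.0 and its size factors, a replicate block, no filter on low counts, other limits on nuclei, each run alone and each animal left out as alternatives. A population was tested where each animal gave 20 or more nuclei. Differences between clusters were fitted with limma 3.58.1. The edgeR and limma fits were tested on simulated data. Values of each animal were given for called pairs and, up to 6, for pairs of lowest p at 10 CPM or more.

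Genotypes were taken from the sample titles, because a genotype tag of run 1 names WT for all libraries. Pairing by replicate number was checked by the correlation of deviations from the genotype means, and all 9 same-number pairs exceeded 0.1 in the excitatory (0.176 to 0.462) and inhibitory (0.202 to 0.519) neuron-like classes. The study drew its E14 animals from 3 litters, and the labels do not tie replicate numbers to litters. The members, gene lists and tests were chosen with earlier results of these data known. The p-values of the main genotype fits rest on a spread estimated over all 9 animals, 3 per genotype. Those of the sign-flip test rest on differences within the 9 animals. Some genes are not reported here.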

Additional observations from a re-analysis of the deposited data

Results flagged for a closer look

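The KO change of Lmo3 was larger in cluster 19 than in cluster 5 by 0.727 and larger in cluster 2 than in cluster 5 by 0.901 on the log2 scale, and the limma test of each difference passed its threshold with all animals. Neither passed in run 1 alone, nor in every limma fit with 1 animal left out (adjusted p up to 0.0978 and 0.364). Both comparisons share the cluster 5 values, and the clusters were chosen for their opposed values, which the p-values do not take into account.

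Cluster 29, which no comparison used, held 690 nuclei of Het 1 and 1 nucleus of WT 1. Lhx9 was at 557 CPM in its pooled counts, above the 159 CPM of the Cajal-Retzius-like cluster 26. The cause was not tested.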

How the results depend on the processing

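The 7 gene and cluster pairs given by animal and the Lmo3 differences between clusters kept their direction under each alternative run, while the replicate block turned the sign of other fold changes near 0, such as Lhx2 in cluster 1 in KO (-0.06 to 0.03). Among KO calls in neuron clusters, DESeq2 gave 1 (Lmo3, cluster 19), no filter on low counts 2 (Lmo3, clusters 19 and 2), the replicate block 3, counting the unnamed clusters as well 1 (Lmo3, cluster 5; added after seeing the data) and leaving out 1 animal 0 to 1 (1 without KO 3, Lmo3 in cluster 19). Without the filter Het gave 1 call in the classes (Lhx1, inhibitory neuron-like) and 1 in the neuron clusters (Lhx1, cluster 2), in both of which Het 1 held the high value, and Lhx9 was called in unnamed cluster 7 (1.77, adjusted p = 0.00511, edgeR). The replicate block changed no other call of a member. Run 1 alone moved the level of Lhx9 in cluster 26 to 129 CPM, Isl1 in cluster 3 to 379 CPM, Lmo1 in cluster 15 to 78.6 CPM and Lmo4 in cluster 22 to 168 CPM, and the cause was not tested. For Lmo3 in cluster 5, 7 of 15 alternatives passed the threshold, and run 1 alone gave -0.165 (adjusted p = 0.842, edgeR). The Lmo3 difference between clusters 19 and 5 ranged from 0.60 to 0.815 with 1 animal left out and was 0.674 in run 1. That between clusters 2 and 5 ranged from 0.777 to 1.12 and was 0.383 in run 1. By the share of thinned nuclei with a UMI in place of CPM, the highest neuron cluster of Lmo3 was 19 and not 23, and the other 9 genes kept theirs. The unthinned share of Lmo3 was also higher in cluster 19. With 3 animals per genotype, small changes and genes of few counts, such as Lhx1 outside cluster 26, were not resolvable.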
